A study of Mus musculus with 6 samples.

Results

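The proteasome genes were described in cortical RNA of 5XFAD mice that had received a cell transplant and of 5XFAD mice that had not. Members were all protein-coding genes of the deposited count table whose symbol begins with Psma to Psmg and a digit, except the interferon-inducible core subunits Psmb8 and Psmb9. These were 48 of 54532 gene rows. Of them, 46 passed the filter on low counts and were tested among 17042 genes. Psma8, an alpha subunit used in the testis, and Psmb11, the beta subunit of the thymus cortex, did not pass and had at most 8 counts in any library.

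The 3 cell-treated libraries came from cortex of 5XFAD mice given, per the series title, human GABAergic interneurons made from induced pluripotent stem cells. The 3 control libraries came from cortex of 5XFAD mice whose treatment label is NC. Both groups carry the 5XFAD transgenes, which are mutant human amyloid precursor protein and presenilin under Thy1 promoter elements and are therefore expressed mainly in neurons. Age, sex, time after transplantation and whether controls had a sham operation are not given in the sources used here. The deposited columns of the controls are named for the disease and were taken as controls because the remaining columns carry the word treated, so the sign of every difference rests on that reading. The series' design text gives biological replicates, 3 in each group.

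The proteasome is the protease that degrades ubiquitin-tagged proteins in the cytosol and nucleus. Its core is a barrel of outer alpha rings and inner beta rings, and 3 of the constitutive beta subunits, Psmb5, Psmb6 and Psmb7, carry the proteolytic sites. A regulatory particle caps the barrel: its base holds a ring of ATPases that unfold substrates, and its lid holds the deubiquitinase that removes the tag. Other activators can replace that cap, and dedicated chaperones assemble the core and the base. When the proteasome is inhibited, the transcription factor Nfe2l1 raises the transcription of subunit genes together through antioxidant response elements in their promoters. Neurons depend on the proteasome for protein turnover at synapses, and its impairment is much studied in Alzheimer's disease.

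The 46 tested members comprised 7 alpha subunits, 7 constitutive beta subunits and the inducible beta subunit Psmb10. The regulatory particle gave 6 base ATPases, 3 other base subunits and 8 lid subunits. The remainder were 3 base chaperones (Psmd5, Psmd9, Psmd10), 4 core chaperones (Psmg1 to Psmg4), and 6 activators or inhibitors (Psme1, Psme2, Psme2b, Psme3, Psme4, Psmf1). Psmc3ip met the symbol rule only by name, since it encodes a factor of meiotic recombination, and is counted among the members without being a subunit.

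Total counts per library ran from 14880969 to 16696463 in cell-treated cortex and from 14221519 to 15607280 in control cortex. All 7 cortical excitatory neuron markers and all 6 general neuron markers were detected in every library. Mitochondrially encoded genes took 4.49%, 6.80% and 5.79% of counts in cell-treated libraries 1, 2 and 3, against 7.28%, 8.78% and 1.95% in control libraries 1, 2 and 3. Levels are given as counts scaled to library size with TMM factors (CPM) where a gene is compared between libraries, and as deposited FPKM, which also divides by gene length, where genes are compared with each other.

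No proteasome gene differed between the groups by the test. In edgeR's quasi-likelihood test with Benjamini-Hochberg adjustment over all genes, 0 of 46 members passed an adjusted p of 0.05, where 0.00% of all genes passed, and every member had an adjusted p of 0.999. At an unadjusted p under 0.05 there were 0 members, where 2.0% of all genes lay. DESeq2 called 0 members among 11 genes, 0.0647% of those tested, and limma voom also called 0 members. Of the members, 42 of 46 had a log2 fold change above 0, where 50.2% of all genes did, and the median log2 fold change was 0.22, against 0.0013 over all genes. The few calls of other tools thus held no member.

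Leaving out libraries moved these counts. Without cell-treated library 3, 13 of 46 members had a log2 fold change above 0, where 47.4% of all genes did, and the median was -0.10. In that fit 1 member, Psme4, had an unadjusted p under 0.05, where 4.54% of all genes did, and the groups of 4 members did not overlap, where those of 22.2% of genes did not. These 4 were Psmc6 and Psme4, higher in cell-treated cortex, and Psmc5 and Psmb10, lower in it. Without control library 3, 43 of 46 members lay above 0, where 51.4% of all genes did, with a median of 0.34. There 0 members had an unadjusted p under 0.05, where 2.13% of all genes did. The groups of 9 members did not overlap, all higher in cell-treated cortex. Of all genes, 21.9% did not overlap in either direction and 11.3% with higher cell-treated values. Without both libraries numbered 3, a setting chosen after seeing the data, 23 of 46 members lay above 0, where 49.1% of all genes did, with a median of -0.0022. The members with an unadjusted p under 0.05 were then Psmc6, Psmd1 and Psme4, where 8.87% of all genes lay, and 14 members did not overlap, where 43.1% of genes did not.

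Cell-treated library 3 held the highest proteasome levels. The members together summed to 2819, 2703 and 4749 CPM in cell-treated libraries 1, 2 and 3, against 2819, 2525 and 3386 CPM in control libraries 1, 2 and 3. As a share of all counts, the members took 0.291%, 0.269% and 0.457% in cell-treated libraries 1, 2 and 3, and 0.280%, 0.253% and 0.340% in control libraries 1, 2 and 3. Cell-treated libraries 1 and 2 thus lay inside the range of the controls and cell-treated library 3 above it.

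Core, base and lid genes had their highest values in this library together. It was the highest of the 6 libraries for 40 of 46 members (87.0%), where 28.7% of all genes were highest there. Among 3312 protein-coding genes whose mean CPM lay within the members' interquartile range of 36.8 to 91.7, the share was 33.1%. All 31 subunits of the constitutive core, the base and the lid were highest in it, against 9 of the 15 other tested members. It stood at least 1.5-fold above the next library for 15 members, all of them among those 31, where 6.46% of all genes did so. It stood at least 2-fold above the next for Psmb7 and Psmb3, where 2.43% of all genes did so.

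**Figure D1:**
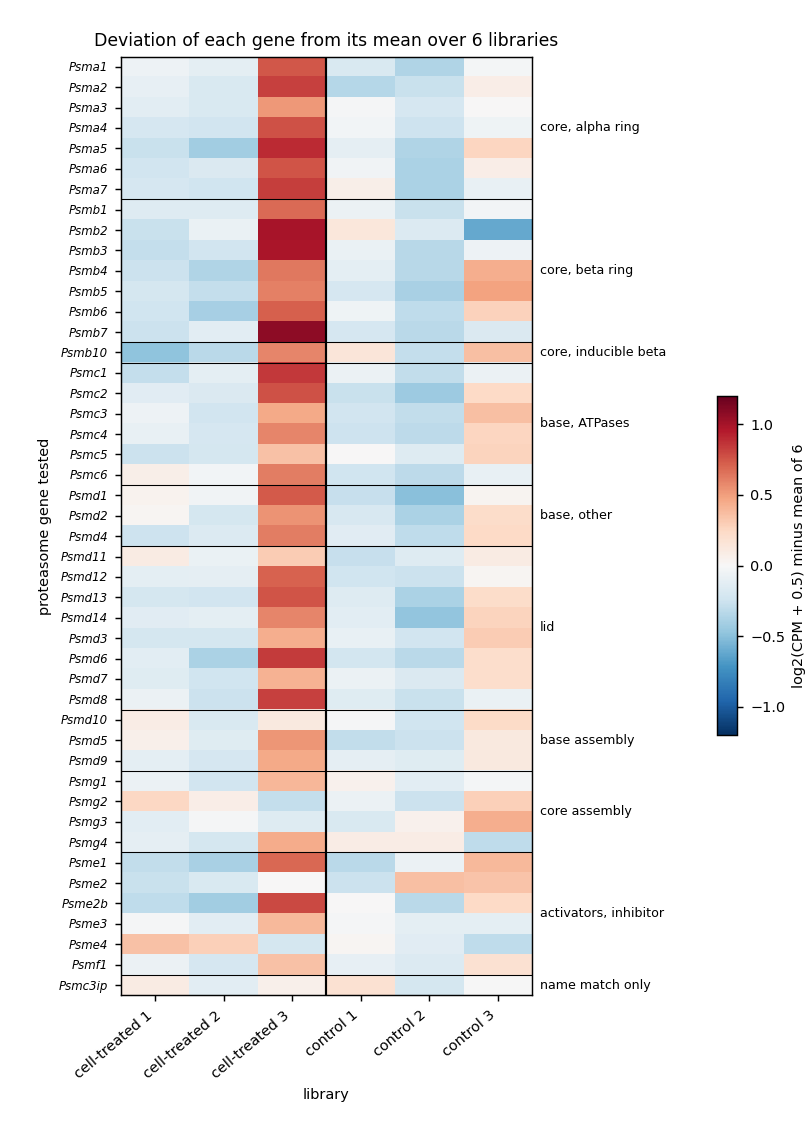
Deviation of log2(CPM + 0.5) from the mean of the 6 libraries for each of the 46 tested proteasome genes (rows, grouped by role), with cell-treated libraries left of the line and control libraries right of it. The column of cell-treated library 3 is red through the core, base and lid, where its median deviation is 0.72, and mixed among chaperones and activators.

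In median deviation on the log2 scale, the 31 subunits stood at -0.16, -0.20 and 0.72 in cell-treated libraries 1, 2 and 3, and at -0.14, -0.31 and 0.10 in control libraries 1, 2 and 3. Control library 3 was the highest control for 27 of the 31 and control library 2 the lowest control for 28. For 21 of the 31, cell-treated libraries 1 and 2 both lay inside the control range. The ratio of cell-treated library 3 to the median of the other 5 had a median of 1.82 over the 31, from 1.30 for Psmd11 to 2.43 for Psmb7. By role, this median was 1.96 for the constitutive core, 1.72 for the regulatory particle, 1.5 for base chaperones, 1.15 for core chaperones and 1.40 for activators and the inhibitor.

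Other transcripts of cell-treated library 3 also stood apart. The 6 astrocyte markers summed to 5480, 7867 and 2475 CPM in cell-treated libraries 1, 2 and 3, against 9551, 8127 and 4898 CPM in control libraries 1, 2 and 3. For the 6 oligodendrocyte markers the sums were 4641, 7625 and 2926 CPM in cell-treated libraries, against 8282, 5778 and 4900 CPM in control libraries. Microglia markers summed to 602.5, 799 and 1281 CPM in cell-treated libraries and to 936.5, 893.1 and 717.2 CPM in control libraries. Neuron markers summed to 5420, 6185 and 6465 CPM in cell-treated libraries and to 5158, 4845 and 5036 CPM in control libraries. Endothelial markers summed to 317.3, 341.3 and 629.1 CPM in cell-treated libraries and to 383.9, 435.5 and 277 CPM in control libraries. Cortical excitatory neuron markers summed to 1216, 1365 and 1795 CPM in cell-treated libraries and to 1754, 1167 and 1320 CPM in control libraries, and interneuron markers to 1452, 647.5 and 1317 CPM in cell-treated libraries and to 802.7, 535 and 1294 CPM in control libraries. Gad1 alone gave 954.3 of the 1452 CPM in cell-treated library 1 and was the only 1 of the 6 interneuron markers highest there. Pvalb was lowest of all 6 libraries there, at 20.3 CPM. By single genes, 6 of 6 oligodendrocyte and 4 of 6 astrocyte markers were lowest in cell-treated library 3, and Aldh1l1 and Gfap were the astrocyte exceptions. The microglia, endothelial and neuron lists were mixed. In that library 4 of 6 microglia markers were highest and Cx3cr1 was the lowest of all 6 libraries. Of the endothelial markers, 3 of 5 were highest there, Flt1 was lowest, and Slc2a1 alone gave 355.8 of the 629.1 CPM. It was highest for 2 of 6 neuron markers, 3 of 7 cortical excitatory markers and 1 of 6 interneuron markers. None of these markers was at 0 in any library. Blood markers summed to 104.9, 135.8 and 274.9 CPM in cell-treated libraries and to 49.4, 18.9 and 6.78 CPM in control libraries, and striatal projection neuron markers to 247.4, 262 and 634.6 CPM in cell-treated libraries and to 520.4, 530.3 and 1510 CPM in control libraries. Penk alone gave 423.0 of the 634.6 CPM in cell-treated library 3. All 7 striatal markers had a log2 fold change below 0 and were highest in control library 3, and 0 passed. The groups of 4 of them did not overlap, all lower in cell-treated cortex, where 8.60% of all genes did not overlap in either direction. The part of all these marker lists in the proteasome values was not tested, and in bulk tissue fewer cells of a type and less RNA per cell cannot be told apart.

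The alpha ring gates the core. Its 7 tested subunits summed to 426.9, 414.1 and 811.4 CPM in cell-treated libraries 1, 2 and 3, against 449.5, 384.2 and 489.0 CPM in control libraries 1, 2 and 3. All 7 had a log2 fold change above 0, with a median of 0.30, and without cell-treated library 3 the median was -0.10. Psma1, the alpha subunit of smallest p, had 67.3, 64.8 and 118 CPM in cell-treated libraries and 61.8, 54.55 and 68.8 CPM in control libraries. Its groups overlapped, since 2 cell-treated values lay under the highest control, and its log2 fold change was 0.43 ± 0.256 (SE, adjusted p = 0.999 in edgeR), and 0.096 without cell-treated library 3. Psma6, the alpha subunit of highest FPKM, had 67.9, 70.5 and 134.5 CPM in cell-treated libraries and 77.3, 61.0 and 84.5 CPM in control libraries. Psma3 had the lowest FPKM of the tested ones, and its 63.4, 60.7 and 99.3 CPM in cell-treated libraries stood beside 68.6, 60.0 and 69.5 CPM in control libraries. In each of these genes the value of cell-treated library 3 was the outlying one.

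The constitutive beta ring carries the active sites, and the excess of cell-treated library 3 over the next library varied within it, from 1.09-fold for Psmb5 to 2.31-fold for Psmb7. Psmb7, the trypsin-like subunit (chromosome 2, 38588036 to 38644087), had 45.2, 49.5 and 114 CPM in cell-treated libraries, against 47.0, 43.2 and 47.7 CPM in control libraries. The controls lay close together and cell-treated library 3 was 2.31-fold above the next library. The log2 fold change of Psmb7 was 0.60 ± 0.345 (SE, adjusted p = 0.999 in edgeR), and 0.042 without that library. Psmb7 overlaps Nek6, a kinase gene on the opposite strand, over 6571 bases, and the protocol names no strand-marking kit. Nek6 itself had 25.97, 35.3 and 76.6 CPM in cell-treated libraries and 45.2, 43.2 and 32.5 CPM in control libraries, so reads from the 2 genes may not be fully separated.

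Psmb5, the chymotrypsin-like subunit that proteasome inhibitor drugs bind, behaved differently in the controls. Its values were 50.1, 47.2 and 88.25 CPM in cell-treated libraries and 50.2, 44.2 and 81.0 CPM in control libraries. Both libraries numbered 3 were high and the other 4 lay together, which left a log2 fold change of 0.081 ± 0.318 (SE), and -0.27 without cell-treated library 3. Psmb6, the caspase-like subunit, had 60.0, 53.7 and 117 CPM in cell-treated libraries and 68.8, 57.6 and 86.5 CPM in control libraries, with a log2 fold change of 0.12 ± 0.316 (SE) and -0.32 without cell-treated library 3. Psmb4, a structural subunit, was at 91.1, 84.8 and 169.5 CPM in cell-treated libraries and at 100.3, 86.2 and 147.5 CPM in control libraries, again with both of those libraries high. Psmb2, a further structural subunit, had 26.6, 30.3 and 64.25 CPM in cell-treated libraries and 35.4, 28.5 and 20.7 CPM in control libraries, so here control library 3 was the lowest of all 6. The values of Psmb4 and Psmb2 are given because of this contrast, seen in the data.

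**Figure D2:**
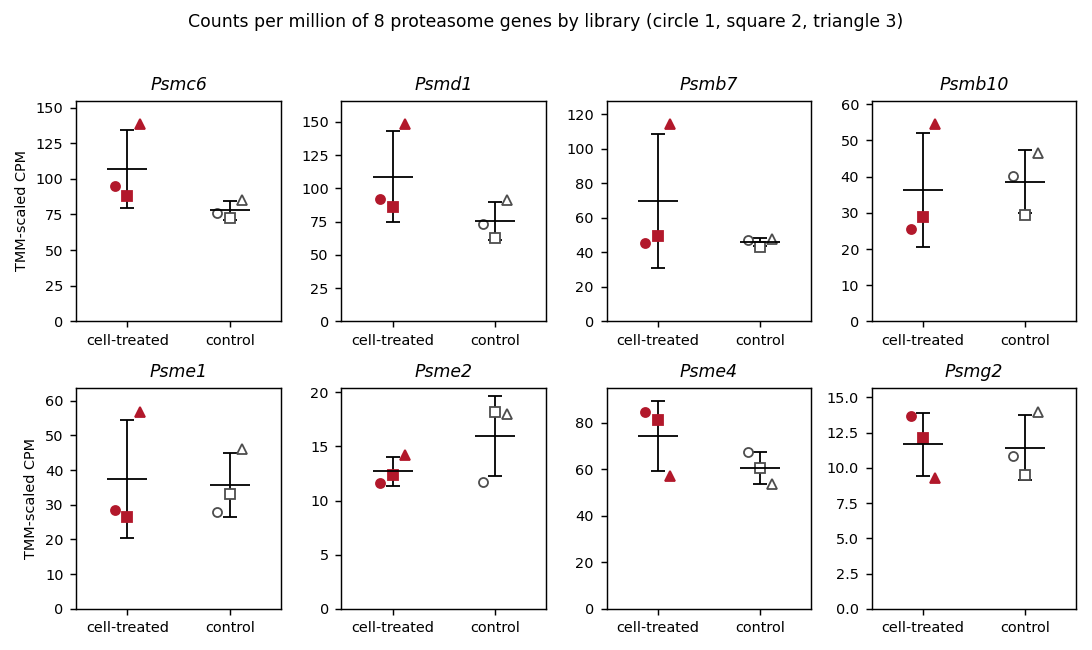
CPM of 8 proteasome genes in each library, with cell-treated libraries as filled red symbols on the left and control libraries as open symbols on the right of each panel, and lines for the mean ± SD (n = 3 each). Cell-treated library 3, the triangle, is far above the rest for Psmb7 at 114 CPM and lies below the other cell-treated libraries for Psme4 and Psmg2.

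Psmb10 (chromosome 8, 105935735 to 105938444) takes the place of Psmb7 in the immunoproteasome, the core variant that interferons induce. It had 25.6, 28.8 and 54.5 CPM in cell-treated libraries and 40.04, 29.45 and 46.5 CPM in control libraries, with a log2 fold change of -0.091 ± 0.318 (SE). Without cell-treated library 3 both remaining cell-treated values lay below all controls, and the log2 fold change was -0.51. The log2 ratio of Psmb10 to Psmb7 in FPKM was 0.18, 0.22 and -0.062 in cell-treated libraries, against 0.77, 0.45 and 0.97 in control libraries. All cell-treated ratios were below all control ratios, averaging 0.11 ± 0.154 in cell-treated and 0.73 ± 0.260 in control cortex (SD, n = 3 each). The difference was -0.62. An exact two-sided permutation test gave p = 0.1, the smallest p that 3 against 3 allows, so this design could not have passed 0.05 and the p adds nothing to the separation of the groups. With any library left out it ran from -0.76 to -0.50. The ratio holds Psmb7 counts that may include Nek6 reads. The corresponding differences were -0.17 for Psmb8 to Psmb5 and -0.30 for Psmb9 to Psmb6, both with overlapping groups.

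The ATPases of the base, which unfold substrates and thread them into the core, summed to 619.3, 611.2 and 1040.0 CPM in cell-treated libraries and to 619.8, 563.2 and 773.4 CPM in control libraries. Psmc6 (chromosome 14, 45329788 to 45349705) was the one member whose groups did not overlap, where 8.60% of all genes did not overlap in either direction and 4.30% with higher cell-treated values. It had 94.8, 88.1 and 138 CPM in cell-treated libraries, against 76.2, 72.4 and 85.0 CPM in control libraries. Its mean was 107 ± 27.3 CPM in cell-treated and 77.9 ± 6.49 CPM in control cortex (SD, n = 3 each). All 3 cell-treated values lay above the highest control, though cell-treated library 2 did so by little, and the log2 fold change was 0.46 ± 0.208 (SE, adjusted p = 0.999 in edgeR). Without cell-treated library 3 it was 0.23.

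Other ATPases lacked this separation. Psmc5, the most abundant member per length, had 136.2, 140.2 and 207.5 CPM in cell-treated libraries and 163.1, 146.0 and 195.6 CPM in control libraries, with a log2 fold change of -0.060 ± 0.223 (SE) and -0.28 without cell-treated library 3. It was the only one of the 31 subunits with a negative value in the fit of all libraries. Psmc2, the ATPase of lowest FPKM, had 78.5, 76.9 and 147.5 CPM in cell-treated libraries and 71.7, 64.0 and 102.5 CPM in control libraries.

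The non-ATPase part of the base receives ubiquitin chains and shuttle factors. Psmd1 (chromosome 1, 86064387 to 86139151), one of its large scaffolds, had 91.7, 86.4 and 148 CPM in cell-treated libraries and 73.5, 62.8 and 91.1 CPM in control libraries. Cell-treated library 2 lay below control library 3, so the groups overlapped, and the log2 fold change was 0.52 ± 0.254 (SE, adjusted p = 0.999 in edgeR). Without cell-treated library 3 it was 0.23. Psmd2, the other scaffold and the highest of the 3 in FPKM, had 210.3, 178.5 and 301.5 CPM in cell-treated libraries and 181.0, 159.6 and 241.5 CPM in control libraries. Psmd4, a ubiquitin receptor, had 75.7, 80.0 and 137.8 CPM in cell-treated libraries and 81.5, 72.4 and 106.2 CPM in control libraries. For both, the value of cell-treated library 3 was the highest and control library 3 the next.

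The lid summed to 577.3, 547.1 and 965.8 CPM in cell-treated libraries and to 569.6, 521.2 and 714.4 CPM in control libraries. Psmd14, its deubiquitinase, had 67.9, 68.7 and 112.3 CPM in cell-treated libraries and 68.3, 53.8 and 89.9 CPM in control libraries, with a log2 fold change of 0.23 ± 0.270 (SE) and -0.052 without cell-treated library 3. Psmd12, the lid scaffold of smallest p, had 62.4, 62.75 and 110.8 CPM in cell-treated libraries and 57.3, 56.6 and 68.7 CPM in control libraries, with a log2 fold change of 0.37 ± 0.253 (SE) and 0.038 without cell-treated library 3. Psmd7, the partner of Psmd14 in its enzymatic dimer and the lid gene of highest FPKM, had 91.4, 85.6 and 135.8 CPM in cell-treated libraries and 96.5, 89.8 and 117.7 CPM in control libraries. Psmd11, a lid scaffold, differed least between libraries within the lid: it had 52.2, 46.2 and 60.3 CPM in cell-treated libraries and 40.25, 43.9 and 52.4 CPM in control libraries. It was also the lid gene of lowest FPKM.

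**Figure D3:**
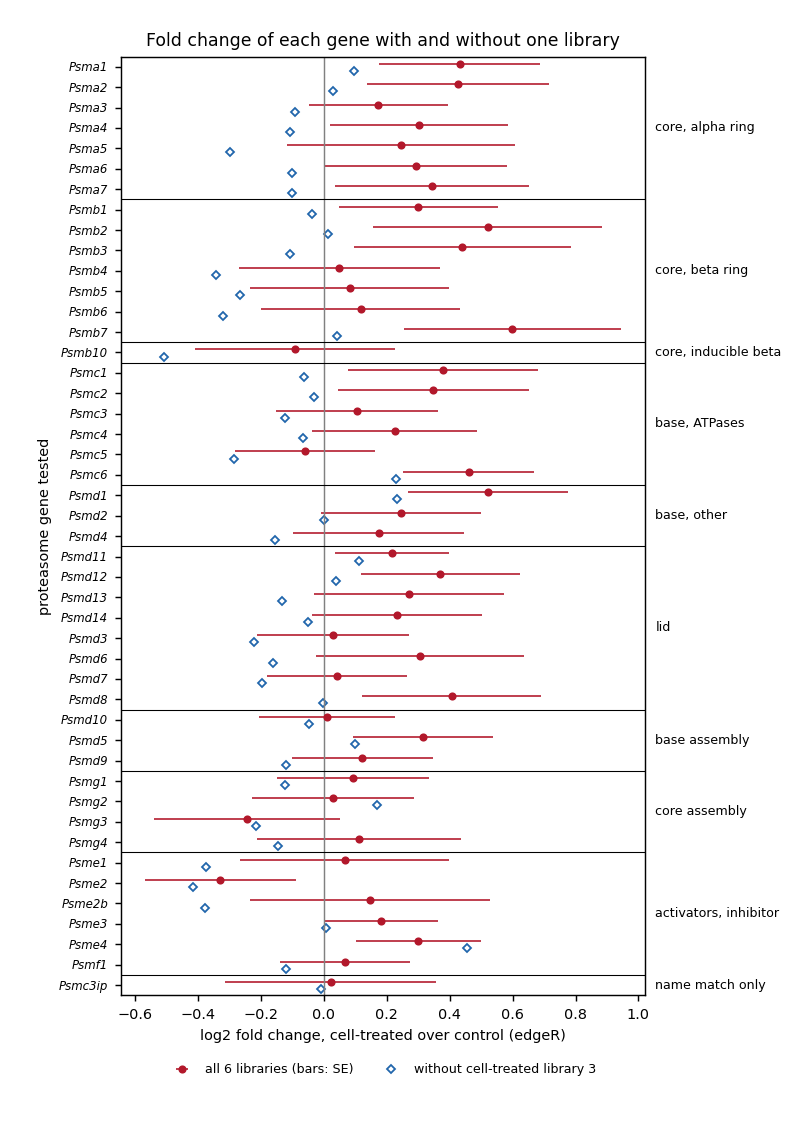
Log2 fold change of cell-treated over control cortex from edgeR for each of the 46 tested genes, with all 6 libraries (red points, bars are the SE) and without cell-treated library 3 (blue diamonds). With all libraries 42 genes lie above 0 and without that library 13 do; the largest drop among the active-site subunits is that of Psmb7, to 0.042.

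Chaperones and activators were less uniform than the subunits they serve. The core chaperones, which help alpha rings to form, summed to 33.75, 31.01 and 36.1 CPM in cell-treated libraries and to 32.5, 30.4 and 36.2 CPM in control libraries. Psmg2 had 13.7, 12.1 and 9.27 CPM in cell-treated libraries and 10.8, 9.465 and 14 CPM in control libraries, and was lowest of all libraries in cell-treated library 3. Psmg3 had 4.39, 4.80 and 4.29 CPM in cell-treated libraries and 4.21, 5.05 and 6.71 CPM in control libraries. At such levels each value rests on few reads, from 61 to 105 for Psmg3. Psmd10, a base chaperone also known as the oncoprotein gankyrin, had 16.2, 13.3 and 16.5 CPM in cell-treated libraries and 15.1, 12.8 and 17.8 CPM in control libraries. Psmd5, the base chaperone of smallest p, had 47.4, 41.2 and 65.7 CPM in cell-treated libraries and 37.0, 37.9 and 49.2 CPM in control libraries, with a log2 fold change of 0.31 ± 0.224 (SE) and 0.098 without cell-treated library 3. Psmd9, another base chaperone, had 27.4, 25.8 and 41.1 CPM in cell-treated libraries and 27.55, 26.9 and 32.3 CPM in control libraries.

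Psme1 and Psme2 encode the partner chains of the interferon-inducible activator ring. Psme1 had 28.5, 26.6 and 56.9 CPM in cell-treated libraries and 27.8, 33.2 and 46.0 CPM in control libraries. Psme2 had 11.6, 12.4 and 14.2 CPM in cell-treated libraries and 11.7, 18.2 and 18.0 CPM in control libraries, with a log2 fold change of -0.33 ± 0.241 (SE). The partners thus peaked in different libraries, Psme1 in cell-treated library 3 and Psme2 in control library 2. Psme2b is a single-exon gene of 837 bases and a near copy of Psme2, so how reads were divided between them is uncertain. Its counts ran from 102 to 268 in cell-treated libraries and from 106 to 175 in control libraries. Psme3, the nuclear activator, had 97.0, 89.4 and 129 CPM in cell-treated libraries and 97.1, 90.4 and 90.45 CPM in control libraries. Psmf1, an inhibitor of the core, had 32.4, 29.65 and 43.7 CPM in cell-treated libraries and 31.9, 30.4 and 38.7 CPM in control libraries.

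Psme4 (chromosome 11, 30771726 to 30880361), the large single-chain activator linked to histone degradation, had its lowest cell-treated value in cell-treated library 3. It had 84.8, 81.0 and 57.2 CPM in cell-treated libraries, against 67.3, 60.4 and 53.5 CPM in control libraries. Cell-treated libraries 1 and 2 were above all controls and cell-treated library 3 was inside the control range. The log2 fold change was 0.30 ± 0.198 (SE, adjusted p = 0.999 in edgeR), and 0.46 without cell-treated library 3. Besides Psme4, the members not highest in cell-treated library 3 were Psmg2, Psmg3, Psmd10, Psme2 and Psmc3ip. Psmc3ip was low, with 26 to 38 counts in every library. It overlaps the gene Mlx on the opposite strand over 385 bases. Mlx had a mean of 315.2 counts against 33.5 for Psmc3ip, so reads of both genes may not be fully separated.

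Levels per length were compared within a library with the deposited FPKM. Averaged over the 6 libraries, the most abundant members were Psmc5 at 117.9, Psmc1 at 78.6, Psma6 at 66.9 and Psmb5 at 66.8 FPKM. The lowest tested members were Psmc3ip at 1.21, Psmg3 at 1.69, Psmd9 at 4.16 and Psmf1 at 5.34 FPKM. Subunits that occupy equal numbers of places in the particle did not have equal FPKM. FPKM rests on the deposited gene length, which in the constitutive core ran from 899 bases for Psmb5 to 4595 for Psmb1. In CPM, Psmb7, with a gene length of 3421 bases, was above Psmb2, with 1204 bases, in every library. The part of gene length in the spread of FPKM was not tested. Among the 14 constitutive core subunits, the ratio of the highest to the lowest was 4.21, 3.95 and 4.27 in cell-treated libraries 1, 2 and 3, and 4.56, 3.92 and 6.46 in control libraries 1, 2 and 3. The lowest of them was Psmb7 in every library except cell-treated library 3, where it was Psma3. Neighbours in this order overlapped widely: Psma6 ran from 49.2 to 110.1 FPKM and Psmb5 from 48.9 to 99.2 FPKM over the 6 libraries.

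**Figure D4:**
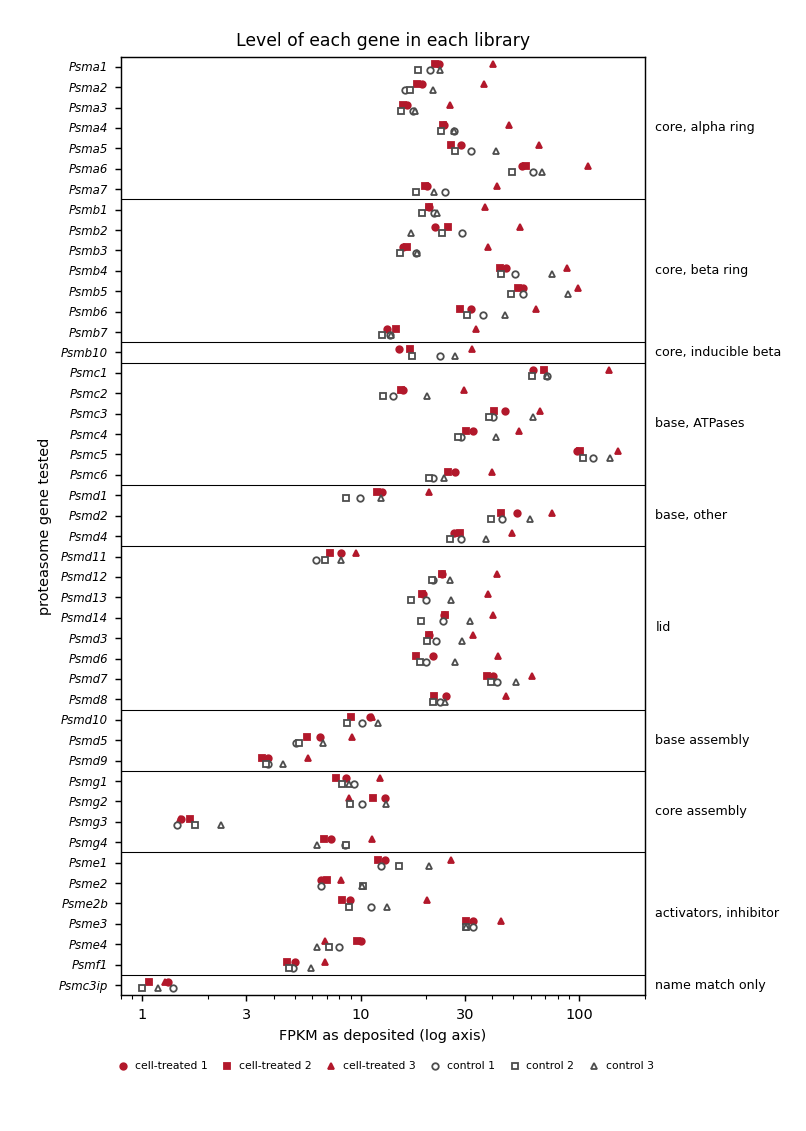
Deposited FPKM on a log axis of each tested proteasome gene in each library, with red symbols for cell-treated and open symbols for control libraries. Core, base and lid genes lie mostly between 10 and 100 FPKM with cell-treated library 3 rightmost, and chaperones lie lower.

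The promoters of members that bear on the shared profile were read from RefSeq (GRCm38.p6), which gave 40 of the 48 members. Motifs were searched on both strands in the 250 bases before and 50 from the start site. The core of the antioxidant response element, TGACNNNGC, was in 6 of 40 member promoters (15%) and in 12.5% of all 27025 promoters. The 6 were Psmb5, Psmb6, Psmc6, Psmd9, Psmd12 and Psme4. The core of the interferon-stimulated response element, in which 2 bases of any kind part GAAA from a second GAAA, was in 5 of 40 (12.5%) and in 3.49% of all promoters. The CCAAT box was in 14 of 40 (35%) and in 37.9% of all promoters, the TATA box TATAAA in 3 (7.5%) and 14.2%, and the gamma-activated site TTCNNNGAA in 2 (5.0%) and 8.47%. Matches of different motifs overlapped in 0 cases. A match is a string of letters, not a bound site.

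Promoters are shown for active-site subunits Psmb5 and Psmb6, for Psmc6 with its separate groups, and for Psme4, whose lowest cell-treated value was that of library 3. Genes with the same core motif and unlike library profiles can thus be compared. Psme1 is shown for its interferon motif, which begins 9 bases after RefSeq's start and stands on the other strand. Its printed stretch lies inside the deposited gene, which runs from 55578123 to 55581529. Each is given 5′ to 3′ on the gene's strand, from 250 bases before RefSeq's start to 30 from it, and capitals mark the antioxidant motif core, or in Psme1 the interferon motif core.
Psmb5 promoter, chr14:54617966-54618245, minus strand: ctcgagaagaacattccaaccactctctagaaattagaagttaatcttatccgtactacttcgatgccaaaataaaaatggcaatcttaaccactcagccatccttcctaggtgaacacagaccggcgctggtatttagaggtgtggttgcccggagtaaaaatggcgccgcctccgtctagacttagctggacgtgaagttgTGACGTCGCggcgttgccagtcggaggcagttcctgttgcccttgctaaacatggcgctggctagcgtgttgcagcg
Psmb6 promoter, chr11:70525107-70525386, plus strand: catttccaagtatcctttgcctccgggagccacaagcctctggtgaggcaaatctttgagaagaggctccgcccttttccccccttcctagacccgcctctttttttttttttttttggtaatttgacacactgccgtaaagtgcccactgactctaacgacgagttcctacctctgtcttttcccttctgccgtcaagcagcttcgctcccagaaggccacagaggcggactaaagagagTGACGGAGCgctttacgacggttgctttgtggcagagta
Psmc6 promoter, chr14:45329574-45329853, plus strand: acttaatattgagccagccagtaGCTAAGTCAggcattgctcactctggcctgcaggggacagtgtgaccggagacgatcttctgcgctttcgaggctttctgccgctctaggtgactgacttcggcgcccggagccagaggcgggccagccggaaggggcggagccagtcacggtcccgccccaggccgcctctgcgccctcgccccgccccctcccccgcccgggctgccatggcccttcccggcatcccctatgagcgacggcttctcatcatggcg
Psme4 promoter, chr11:30771525-30771804, plus strand: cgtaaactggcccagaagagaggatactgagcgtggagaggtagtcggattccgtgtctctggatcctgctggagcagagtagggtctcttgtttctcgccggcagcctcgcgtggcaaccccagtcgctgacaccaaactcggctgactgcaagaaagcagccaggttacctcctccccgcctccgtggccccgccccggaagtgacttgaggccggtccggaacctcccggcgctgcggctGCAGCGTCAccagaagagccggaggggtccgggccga
Psme1 promoter, chr14:55578244-55578523, plus strand: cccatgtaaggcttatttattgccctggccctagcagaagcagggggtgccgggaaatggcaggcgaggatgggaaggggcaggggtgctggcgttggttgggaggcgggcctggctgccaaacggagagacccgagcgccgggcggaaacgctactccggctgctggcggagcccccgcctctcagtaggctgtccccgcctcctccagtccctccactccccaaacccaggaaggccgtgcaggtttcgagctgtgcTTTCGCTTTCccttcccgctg

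The motif stands on the gene's strand in Psmb5 and Psmb6 and on the other strand in Psmc6 and Psme4. Its first base lies 47 bases before the start in Psmb5, 9 in Psmb6, 227 in Psmc6 and 7 in Psme4. Of the 6 genes that hold these letters, Psmb5, Psmb6, Psmc6, Psmd9 and Psmd12 were highest in cell-treated library 3 and Psme4 was not. Of all tested members, with or without the letters, 40 of 46 (87.0%) were highest there. A link between the motif and the library profile was not tested.

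Partners of the proteasome outside the symbol rule were listed beside the members. Of 10 tested, 10 had a log2 fold change above 0, with a median of 0.20, 7 were highest in cell-treated library 3, and 0 passed. In the fit without cell-treated library 3, 5 of 10 lay above 0, with a median of 0.011. Pomp, the maturation factor of the core, had 74.5, 84.5 and 126 CPM in cell-treated libraries and 84.2, 71.45 and 93.5 CPM in control libraries. Adrm1, a ubiquitin receptor of the base, had 46.2, 42.9 and 101 CPM in cell-treated libraries and 54.3, 50.5 and 70.3 CPM in control libraries, highest in cell-treated library 3 and next in control library 3. Usp14, a deubiquitinase of the base, had the smallest p, with a log2 fold change of 0.30 ± 0.197 (SE) and 0.18 without cell-treated library 3.

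Genes for the control of subunit transcription were mixed. Of 10 tested genes for Nfe2l1, its processing and its partners, 5 had a log2 fold change above 0, 4 were highest in cell-treated library 3, and 0 passed. Vcp, the unfoldase that extracts Nfe2l1 from the endoplasmic reticulum, had 260.1, 193.3 and 352.3 CPM in cell-treated libraries and 185.6, 178.8 and 313.7 CPM in control libraries, highest in cell-treated library 3 and next in control library 3. Nfe2l1 had 318.8, 343.4 and 349.1 CPM in cell-treated libraries and 361.2, 316.6 and 402.0 CPM in control libraries, so the groups overlapped. Its protein is controlled mainly after translation, which RNA levels do not measure. Bach1, a repressor at the same elements, had the smallest p, with a log2 fold change of 0.37 ± 0.186 (SE).

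Of 13 genes for ubiquitin and its shuttle factors, 7 had a log2 fold change above 0, 9 were highest in cell-treated library 3, and 0 passed. Without that library 4 of 13 lay above 0, and the median was -0.14, against 0.069 with it. Rps27a, a fusion of ubiquitin with a ribosomal protein, had the smallest p. It had 57.9, 59.4 and 74.8 CPM in cell-treated libraries and 113.3, 72.3 and 80.5 CPM in control libraries, with a log2 fold change of -0.47 ± 0.215 (SE). Cell-treated library 3 overlapped with control library 2.

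Interferon-inducible genes were listed for the immunoproteasome. Of 13 tested, 8 had a log2 fold change above 0, 11 were highest in cell-treated library 3, and 0 passed. Once that library was left out, 2 of 13 lay above 0, and the median was -0.22, against 0.32 with it. Isg15, a ubiquitin-like protein, had the smallest p, at 3.32, 3.31 and 17.2 CPM in cell-treated libraries and 2.002, 3.09 and 3.96 CPM in control libraries. Psmb8 had 6.33, 8.58 and 15.7 CPM in cell-treated libraries and 9.11, 9.89 and 11.7 CPM in control libraries. Psmb9 had 3.95, 4.80 and 5.29 CPM in cell-treated libraries and 5.52, 6.80 and 4.54 CPM in control libraries. Psmb8 was highest in cell-treated library 3 and Psmb9 in control library 2.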

How the data were processed

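Polyadenylated RNA of mouse cortex was sequenced in 6 libraries, 3 cell-treated and 3 control, grouped by title. Alignment and counting used HISAT2 2.0.5 and featureCounts, per the submitters' processing notes, which also list DESeq2; no build is stated in the sources used here. Among 54409 identifiers also in GENCODE M21 (GRCm38), 98.3% had the same start and end, as had 47 of the 48 members, and coordinates are as deposited. The authors deposited whole-number counts of reads per gene. The authors also deposited FPKM, counts divided by gene length and sequencing depth, with a library scaling of their own. Whether reads of the human transplant were removed is not stated there. No strand-marking kit is named in the labels' protocols: 22 of 48 members overlap another gene, 17 of them one on the opposite strand, and for 6 a partner's counts reach 10% of the member's. Of 4 further name matches, all pseudogenes, none was tested.

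Counts were tested in R 4.3.3 with edgeR 4.0.16: filterByExpr (minimum count 10, minimum total 15), TMM factors, robust quasi-likelihood fit, Benjamini-Hochberg adjustment over 17042 genes and a threshold of 0.05. SEs derive from the F statistic, and n is 3 per group. Alternatives were DESeq2 1.42.0, limma 3.58.1 (voom; log2(FPKM + 1) and log2(FPKM + 0.1)), other scalings and filters, the replicate block, and libraries left out. The exact permutation test used scipy 1.17.1. Named members are those of smallest p, highest or lowest FPKM in each role, those with groups that do not overlap, active-site and inducible subunits, and set partners; others are named where their counts or patterns single them out, after their values were seen. Members and lists were chosen with earlier results of these data known, so they are no independent support. Counting error is included in the spread between libraries.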

Additional observations from a re-analysis of the deposited data

How the results depend on the processing

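Members past the threshold numbered 0 in every alternative run. DESeq2 called 11 genes and edgeR without a low-count filter 1, none a member; every other alternative called 0. At an unadjusted p under 0.05 there were 1 member without the low-count filter and 2 with the replicate number as a block. The share of all genes under that cutoff was not taken in these fits, so these counts are not read as a result. Over all genes, deviations from the group means correlated weakly between same-numbered libraries (r = -0.28, 0.082 and 0.073). Between libraries of unlike number, r ran from -0.20 to 0.17. Such values cannot settle whether the numbers pair the mice, which the labels do not say. The block changed no other call. With libraries left out, the count at an unadjusted p under 0.05 ran from 0 to 3, and members with groups that do not overlap from 1 to 14, where the main values were 0 and 1. The 14 arose without both libraries numbered 3, an alternative chosen after seeing the data that leaves 2 against 2, where 43.1% of all genes do not overlap. Without control library 3 there were 9, all higher in cell-treated cortex, where 21.9% of genes did not overlap in either direction and 11.3% in that one. Without cell-treated library 3 there were 4 (22.2%).

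The median log2 fold change of members ran from -0.10 (without cell-treated library 3) to 0.34 (without control library 3), and without both it was -0.0022. For 28 named members, all 280 values under 10 settings other than leaving out libraries kept their sign. With libraries left out, 17 changed sign, 13 of them without cell-treated library 3. Their log2 fold changes ran from -0.092 to 0.30 for Psma3, -0.10 to 0.46 for Psma6, -0.51 to 0.11 for Psmb10, -0.27 to 0.39 for Psmb5, -0.32 to 0.33 for Psmb6, -0.033 to 0.58 for Psmc2, -0.094 to 0.15 for Psmc3ip, -0.28 to 0.063 for Psmc5, -0.10 to 0.14 for Psmd10, -0.052 to 0.44 for Psmd14, -0.16 to 0.35 for Psmd4, -0.20 to 0.17 for Psmd7, -0.12 to 0.25 for Psmd9, -0.37 to 0.29 for Psme1, -0.0077 to 0.29 for Psme3, -0.12 to 0.18 for Psmf1 and -0.10 to 0.34 for Psmg2. None of these values was a call. Without both libraries numbered 3, the 8 values that changed sign were -0.051 for Psma3, -0.15 for Psmb6, -0.010 for Psmc3ip, -0.074 for Psmd7, -0.031 for Psmd9, -0.15 for Psme1, -0.0077 for Psme3 and -0.0067 for Psmf1. With single libraries left out the upper end for Psmg2 was 0.20.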

Other observations

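Single genes of ubiquitin handling, the antioxidant response and the interferon response also had their highest value in cell-treated library 3; the 3 given here were chosen after their values were seen. Uchl1, a neuronal deubiquitinase, had 332.7, 256.8 and 1076.0 CPM in cell-treated libraries 1, 2 and 3, against 418.1, 331.6 and 527.3 CPM in control libraries 1, 2 and 3. Mafk, a small partner of Nfe2l1 on DNA, had 9.85, 11.1 and 49.9 CPM in cell-treated libraries, against 19.5, 15.5 and 14 CPM in control libraries. Without cell-treated library 3, both genes had lower levels in the remaining cell-treated libraries, with log2 fold changes of -0.53 for Uchl1 and -0.64 for Mafk. Irf7, an interferon-induced transcription factor, had 2.82, 4.19 and 34.6 CPM in cell-treated libraries and 5.39, 4.35 and 4.67 CPM in control libraries.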
